A study of Homo sapiens with 6 samples.

Results

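The TGF-beta receptors, the SMADs that carry their signal and the SMURFs that end it were followed in Hep G2 cells given *miR-195* or *miR-497*. The 10 genes were chosen by name: *TGFBR1*, *TGFBR2*, *TGFBR3*, *ACVR2A*, *SMAD2*, *SMAD3*, *SMAD4*, *SMAD7*, *SMURF1* and *SMURF2*. All 10 were found among the 21863 gene symbols of the deposited list, each on a single line. Hep G2 is a cell line from a human liver tumor. The cells carried dsRNA mimicking *miR-195* or dsRNA mimicking *miR-497*, each at 5 nM and collected 24 hours after lipofection, or they were non-transfected (NT), with a labelled time of 0 hours. From each of the 3 conditions 1 total RNA library and 1 Ago2-IP library, made from RNA precipitated with an antibody against human Argonaute 2, were sequenced. The control had neither lipofection nor a control dsRNA, so the effect of a mimic and that of transfection cannot be told apart, and no test could be made with 1 library per condition.

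TGF-beta brings the type II receptor TGFBR2 together with the type I receptor TGFBR1, which phosphorylates SMAD2 and SMAD3. These join SMAD4, enter the nucleus and change transcription, whereas SMAD7 blocks the receptor and recruits the ubiquitin ligases SMURF1 and SMURF2, which mark receptors and SMADs for degradation. TGFBR3, or betaglycan, presents the ligand, and ACVR2A is the type II receptor of activin, whose signal runs through the same SMADs. In hepatocytes TGF-beta restrains growth and can trigger cell death. A miRNA guides Argonaute to sites in a 3′UTR that pair with its seed, bases 2 to 8, and the bound mRNA is commonly destabilized.

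Both miRNAs have the same seed, so a site for one is a site for the other. The mature sequences from RefSeq (miRNA table on GRCh38.p14) are shown with the seed in capitals, and they differ from each other mainly after it.
*miR-195*: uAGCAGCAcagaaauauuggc
*miR-497*: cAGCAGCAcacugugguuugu

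The match to this seed, TGCTGCT, was searched on the transcript strand in all 3′UTRs of protein-coding transcripts in the GRCh37 (hg19) annotation of GENCODE, release 44. It was present in 8 of the 10 genes, against 25.3% of 16385 genes with a 3′UTR. *SMAD7* and *ACVR2A* were on the list as reported targets of this miRNA family, so a match in them was foreseeable. The longest 3′UTRs of the 10 genes ran from 1519 to 32870 bases, and the share over all genes was not matched for length. *TGFBR1* and *TGFBR2* had none. *TGFBR3*, *SMAD7*, *SMURF1* and *SMURF2* had 1 each, *SMAD3* had 2, and *ACVR2A*, with a pair that overlap, and *SMAD4* had 3. Of the 3 in *SMAD4*, 1 lies in only 1 annotated transcript, which is not the canonical one. *SMAD2* had 9, of which only 2 lie in the 3′UTR of the annotated transcript closest to the length its reads were counted over. The 8-base word TGCTGCTA, the match followed by A, was found in *SMAD4*, *SMAD7* and *SMURF1*, 3 genes against 5.21% of all. Its A can pair with base 1 of *miR-195*, a u, but not with that of *miR-497*, a c. The 6-base match GCTGCT was found in 9 genes, every one but *TGFBR2*, against 46.1%. The sequence ACGACGA was in none of the 10 and in 0.464% of all genes.

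The sites of the genes with the largest differences between conditions, and that of the co-receptor *TGFBR3*, are shown with the 20 bases before and the base after them, on the transcript strand. Capitals mark the match. The site of *SMURF2* lies at chr17:62540199-62540205 (-), 1761 bases after the stop codon in a 3′UTR of 3566 bases, that of *SMURF1* at chr7:98625283-98625289 (-), that of *SMAD7* at chr18:46447681-46447687 (-), 55 bases after the stop codon, and that of *TGFBR3* at chr1:92148977-92148983 (-). The first site of *ACVR2A* lies at chr2:148685345-148685351 (+), 502 bases after the stop codon. The *SMURF2* 3′UTR belongs to a transcript of 6240 bases, against 3868 bases inferred from its reads. Whether the length its reads were counted over reaches the *SMURF2* site is not known.
*SMURF2*: gataaaaaaagtggagatttTGCTGCTt
*SMURF1*: aatgtcttgttttgaagtatTGCTGCTa
*SMAD7*: ggccacacttcaaactacttTGCTGCTa
*TGFBR3*: acacatgccagtttttaaaaTGCTGCTt
*ACVR2A*: cagcttgtgaatgtttagtgTGCTGCTg

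Predicted duplex energies of these windows with *miR-195* and *miR-497* were lowest for *ACVR2A*, at -22.7 and -23.7 kcal/mol, and were -12.6 and -14.3 kcal/mol for *SMURF2*. The window of *SMAD7* gave -14.1 kcal/mol with *miR-195* and -20.2 kcal/mol with *miR-497*, and that of *SMURF1* -13.4 and -12.6 kcal/mol. After their values had been seen, *SMURF2*, *SMURF1* and *ACVR2A* were found to hold a further 6-base match followed by A, at 225, 451 and 47 bases after the stop codon. These lie at chr17:62541736-62541741 (-), chr7:98627751-98627756 (-) and chr2:148684890-148684895 (+).
*SMURF2*, further match: ttgccatgaggccacattcaGCTGCTa
*SMURF1*, further match: gccccttttcaatttgagcaGCTGCTa
*ACVR2A*, further match: aaatgggactctgaactggaGCTGCTa

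With these, GCTGCTA was present in 5 of the 10 genes and in 10.9% of all genes. It overlaps the 8-base word TGCTGCTA, which supplies it in *SMAD4*, in *SMAD7* and once in *SMURF1*.

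**Figure D1:**
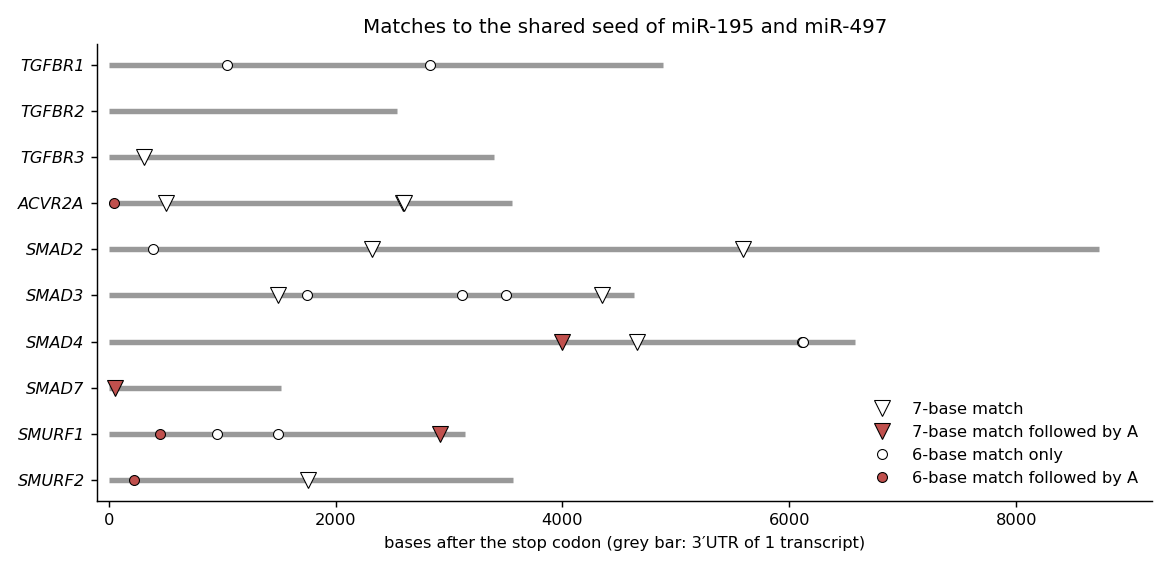
Matches to the shared seed in 1 annotated 3′UTR of each gene, drawn to scale as bases after the stop codon. The transcript was the protein-coding one with a 3′UTR closest to the length inferred from the reads. For *TGFBR3*, *SMAD4* and *SMAD7* it was the canonical one. For *SMURF2* the only such transcript has 6240 bases, against 3868 bases inferred. Triangles are 7-base matches, circles 6-base matches, and filled symbols are followed by A. *TGFBR2* has no match, and the filled symbols fall in *ACVR2A*, *SMAD4*, *SMAD7*, *SMURF1* and *SMURF2*.

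Abundance was deposited as RPKM, a read number scaled to the length of the gene and the depth of the library, which can be compared between genes. The inferred numbers of mapped reads were about 24700000 to 31000000 for total RNA and 10600000 to 16800000 for Ago2-IP. The 10 genes had 150 to 21490 reads each per library, so counting error was at most 16.0% of a value on the log scale at 95%. All 95% intervals cover counting error only and hold no variation between cultures or libraries. Of 9 hepatocyte markers, 8 reached an RPKM of 1 in each of the 6 libraries, and their summed RPKM was 754 to 7905. Defining markers of other cell types were listed at 0 (*COL1A2* and *DCN* of fibroblasts, *PTPRC* and *CD3E* of leukocytes, *KDR* of endothelium), and the summed RPKM of these lists was 0.312 to 2.28, 0.759 to 14.0 and 0.033 to 0.424. *CD68*, at 10.5 to 13.8 RPKM in total RNA, made up most of the leukocyte sum, and *PDGFRB*, at 1.71 to 2.25 RPKM, most of the fibroblast sum. Fewer cells of a type and less RNA per cell cannot be told apart in such bulk libraries.

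All 10 genes were expressed in every library. In total RNA of NT cells *TGFBR2* was highest at 94.5 RPKM, followed by *TGFBR3* at 41.4, *SMURF2* at 17.8, *SMAD7* at 12.6 and *SMAD3* at 11.2. *SMAD2* followed at 9.54 RPKM, *SMAD4* at 8.54, *TGFBR1* at 7.39, *SMURF1* at 5.70 and *ACVR2A* at 4.57. The median of all genes above 0 was 5.51 RPKM. Each neighbour in this order differed beyond counting error, the closest pair being *SMAD2* and *SMAD4* with a ratio of 1.12 (95% counting interval 1.05 to 1.19). The order rests on the lengths used for RPKM, which for *SMURF2* was inferred as 3868 bases against 6240 bases of the longest annotated transcript and 3104 bases of the annotated transcript closest to it. The type II receptor *TGFBR2* was 12.8-fold above its type I partner *TGFBR1*. *TGFBR2* was highest and *ACVR2A* or *TGFBR1* lowest in each of the 6 libraries.

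**Figure D2:**
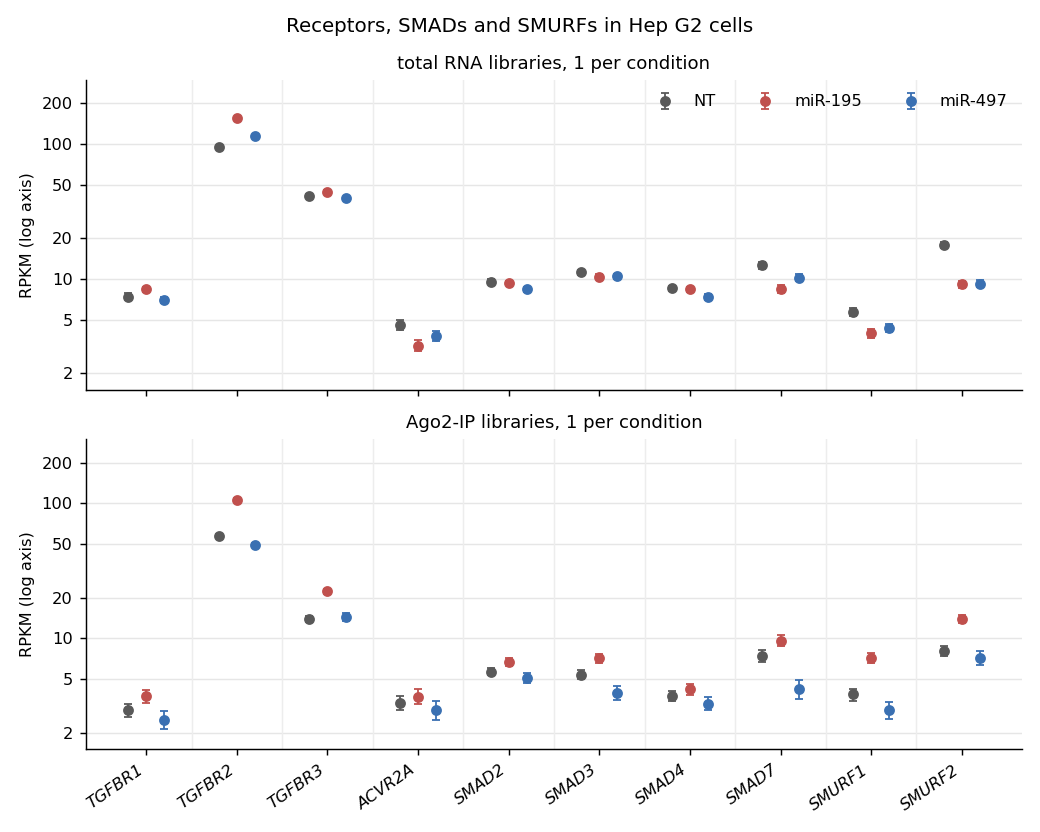
RPKM (log axis) of the 10 genes in the 3 total RNA libraries (top) and the 3 Ago2-IP libraries (bottom), 1 library per condition. Bars are 95% counting intervals and are often smaller than the point. *TGFBR2* and *TGFBR3* stand above the rest, and *SMURF2* is near 9 RPKM in total RNA with either mimic against 17.8 without.

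For each gene the change with a mimic was the log2 ratio of RPKM to the NT library, less the median of this ratio over all genes with a value. In total RNA that median was 0.02 (*miR-195*) and 0.09 (*miR-497*). In Ago2-IP it was 0.48 and -0.23, and the choice of zero weighs more there. A gene was called lower or higher when it lay at least 1.5-fold from this median. Of all genes in total RNA, *miR-195* left 8.93% called lower and 12.9% higher, and *miR-497* 7.36% and 14.2%. Of the 10 genes, 2 were called lower (*SMURF2* and *SMAD7*) and 1 higher (*TGFBR2*) with *miR-195*, and 1 was called lower (*SMURF2*) and 0 higher with *miR-497*. *SMAD7* at -0.59 lay just past the limit and *SMURF1* at -0.55 just short of it. The 10 genes had a median change of -0.09 (*miR-195*) and -0.29 (*miR-497*). Among the 8582 genes that reached 1 RPKM in each of the 6 libraries, to which all 10 belong, the medians of all genes were -0.05 and -0.11, with 6.78% and 5.36% called lower. Both mimics were set against the same NT library.

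The receptors did not move together. *TGFBR2*, which has no site, was measured at 94.5 RPKM in NT, 156 with *miR-195* and 115 with *miR-497*. It was highest with *miR-195*, by 0.70 relative to all genes (95% counting interval 0.67 to 0.74), and above NT by 0.20 (0.16 to 0.23) with *miR-497*. *TGFBR1*, its type I partner and also without a 7-base match, was at 7.39, 8.37 and 6.98 RPKM. Its changes of 0.16 and -0.17 lay on either side of the median of all genes. The co-receptor *TGFBR3* was at 41.4, 44.5 and 40.0 RPKM. Its changes of 0.09 and -0.14 were small although it holds a site. The activin receptor *ACVR2A* was at 4.57, 3.19 and 3.79 RPKM, lower with both mimics, with changes of -0.53 (-0.71 to -0.35) for *miR-195* and -0.36 (-0.53 to -0.19) for *miR-497*, and neither change reached 1.5-fold.

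The SMADs that pass the signal on differed little between conditions. *SMAD2* was at 9.54, 9.40 and 8.38 RPKM and *SMAD3* at 11.2, 10.4 and 10.5 RPKM in NT, *miR-195* and *miR-497*. *SMAD4*, the partner both need, was at 8.54, 8.37 and 7.36 RPKM. The largest change of the 3 genes was -0.31 (-0.40 to -0.22), for *SMAD4* with *miR-497*. With *miR-195* the intervals of *SMAD2* and *SMAD4* included the median of all genes. These genes hold 2 or more sites each.

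*SMAD7*, *SMURF1* and *SMURF2*, which restrain the pathway, lay under the median of all genes with both mimics by more than counting error, as did *ACVR2A* and *SMAD3*. By this measure 5 of the 10 genes were under the median with *miR-195* and 9, all but *TGFBR2*, with *miR-497*. The same share over all genes was not determined. The 8582 genes that reached 1 RPKM had medians of -0.05 and -0.11. The intervals of *TGFBR1* (-0.28 to -0.06), *TGFBR3* (-0.19 to -0.10) and *SMAD3* (-0.28 to -0.10) with *miR-497* included the latter. That of *SMAD3* with *miR-195*, -0.22 to -0.04, included the former. *SMAD7* was at 12.6 RPKM in NT, 8.44 with *miR-195* and 10.2 with *miR-497*, changes of -0.59 (-0.72 to -0.46) and -0.40 (-0.52 to -0.27). *SMURF1* was at 5.70, 3.95 and 4.32 RPKM, changes of -0.55 (-0.69 to -0.40) and -0.49 (-0.63 to -0.35). *SMURF2* was at 17.8, 9.14 and 9.25 RPKM, changes of -0.98 (-1.09 to -0.87) and -1.03 (-1.14 to -0.92). It was the lowest of the 10 genes with either mimic, at 0.514 and 0.520 of its NT level as deposited. Among the 8582 genes that reached 1 RPKM, only 1.29% had a lower change with *miR-195* and 0.256% with *miR-497*. The corresponding shares were 6.67% and 15.3% for *SMAD7* and 7.87% and 8.74% for *SMURF1*. For *TGFBR2* 97.9% of these genes had a lower change with *miR-195*, and 76.9% with *miR-497*.

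**Figure D3:**
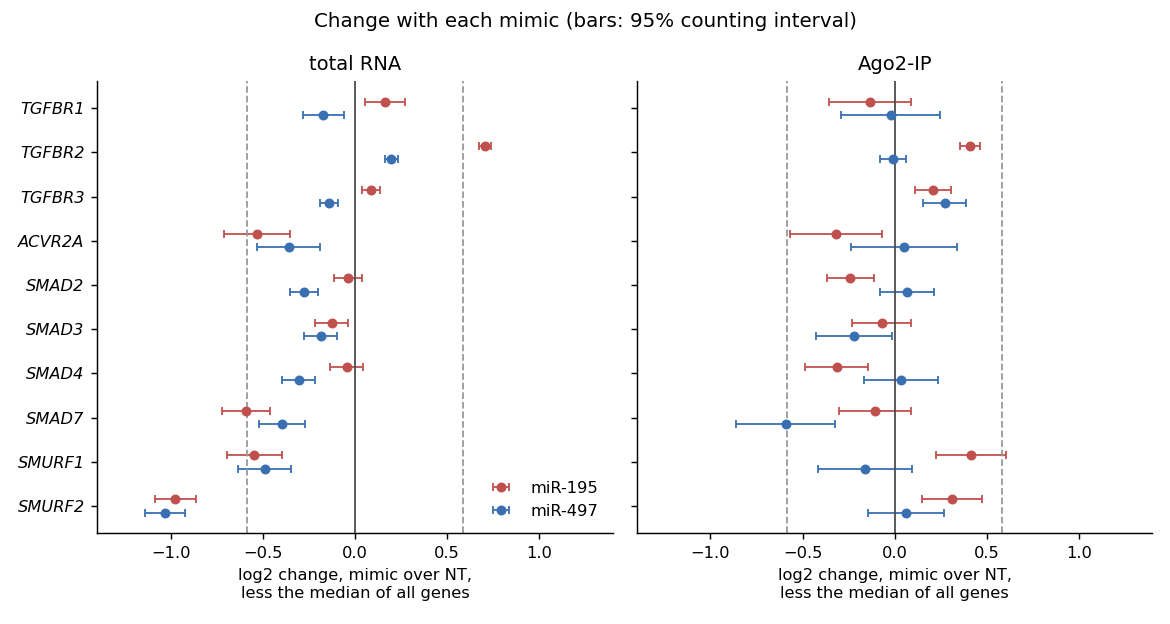
Log2 change with each mimic over NT, less the median of all genes, in total RNA (left) and Ago2-IP (right). Bars are 95% counting intervals, the solid line is the median of all genes and dashed lines mark 1.5-fold. *SMURF2* lies near -1 with both mimics in total RNA and at or above 0 in Ago2-IP.

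**Figure D4:**
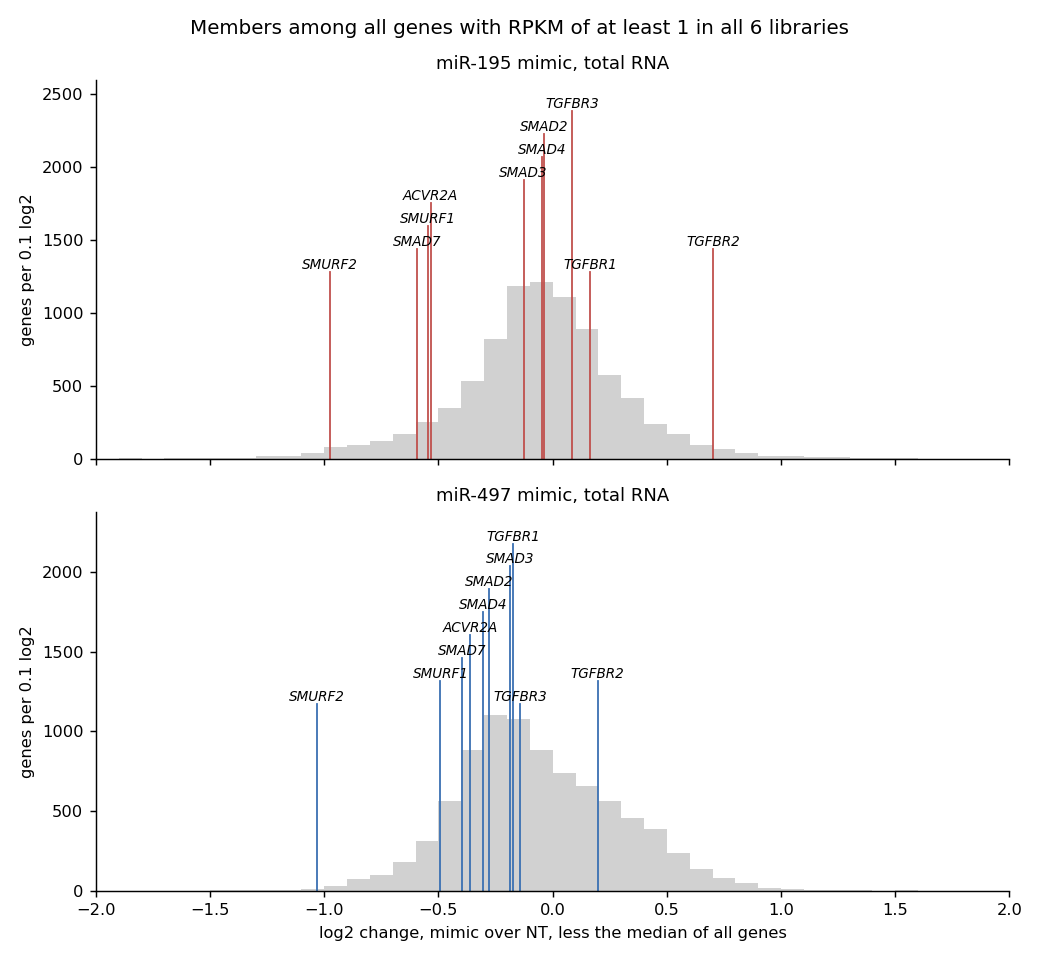
Distribution of the log2 change in total RNA, less the median of all genes, over genes that reached 1 RPKM in each of the 6 libraries (grey bars, genes per 0.1 log2), with the 10 genes as lines whose height carries no value. *SMURF2* lies in the lower tail with both mimics and *TGFBR2* in the upper tail with *miR-195*.

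Over the 8 genes with the 7-base match the median change was -0.33 with each mimic, with ranges of -0.98 to 0.09 (*miR-195*) and -1.03 to -0.14 (*miR-497*). Over all genes the median was -0.08 with the match and 0.02 without it, for both mimics. In the 2 genes without it, *TGFBR1* and *TGFBR2*, the median was 0.43 (*miR-195*) and 0.01 (*miR-497*). The 5 genes with GCTGCTA ranged from -0.98 to -0.05 (*miR-195*) and from -1.03 to -0.31 (*miR-497*), and the other 5 from -0.13 to 0.70 and from -0.28 to 0.20. With *miR-195* these ranges overlapped through *SMAD3* and *SMAD4*, and with *miR-497* the nearest values, -0.31 (-0.40 to -0.22) for *SMAD4* and -0.28 (-0.36 to -0.20) for *SMAD2*, differed by less than counting error. Over all genes the medians with GCTGCTA were -0.13 and -0.17, against 0.01 and 0.02 without it. This split was made after the values had been seen.

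The mimics could also be set against each other, a comparison in which both sides were transfected. In total RNA 9.21% of all genes were called lower and 7.06% higher with *miR-195* than with *miR-497*, and 0 of the 10 genes were called in either direction. As deposited, the counting intervals of *SMURF2*, with a ratio of 0.988 (0.908 to 1.08), and of *SMURF1*, with 0.914 (0.824 to 1.01), included 1. *TGFBR2* differed most, with a ratio as deposited of 1.35 (1.32 to 1.38). *SMAD7* was lower with *miR-195*, with a ratio as deposited of 0.829 (0.757 to 0.908). The median ratio of all genes was 0.951. Relative to it the ratios were 1.04 (*SMURF2*), 0.962 (*SMURF1*), 1.42 (*TGFBR2*) and 0.872 (*SMAD7*).

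RNA bound to Ago2 was measured in the precipitates. The Ago2-IP level divided by the total RNA level in NT cells ran from 0.337 for *TGFBR3* to 0.724 for *ACVR2A*. All 10 genes lay above the median of all genes, 0.326, although the interval of *TGFBR3* (0.32 to 0.36) included it. Of all genes, 51.4% had a lower ratio than *TGFBR3* and 79.5% a lower ratio than *ACVR2A*. For *SMURF2* the ratio was 0.453 in NT, 1.52 with *miR-195* and 0.777 with *miR-497*. For *SMURF1* it was 0.672, 1.80 and 0.679, and for *SMAD7* 0.589, 1.13 and 0.413. With *miR-195* these genes and *ACVR2A*, at 1.16, were the only ones of the 10 with more RPKM in Ago2-IP than in total RNA. The median of all genes moved from 0.326 to 0.469 (*miR-195*) or 0.261 (*miR-497*), and the input RNA, depth and precipitation of 1 library each move with these shifts.

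**Figure D5:**
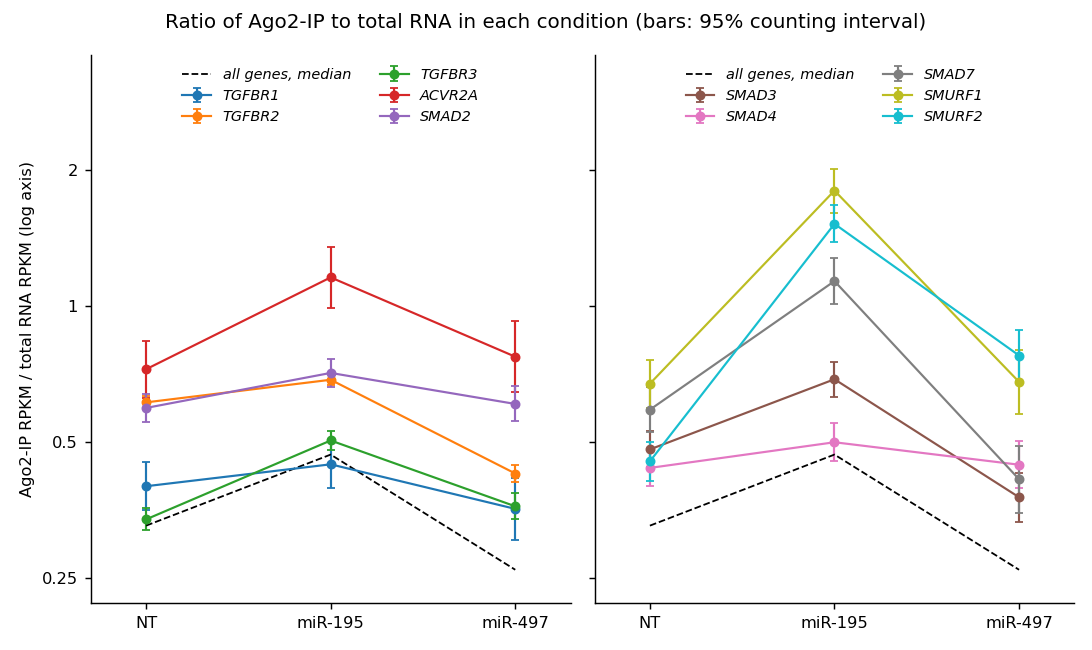
Ago2-IP RPKM divided by total RNA RPKM (log axis) in the NT, *miR-195* and *miR-497* conditions, with 95% counting intervals. The dashed line is the median of all genes. *SMURF1*, *SMURF2*, *SMAD7* and *ACVR2A* are above 1 with *miR-195*, and *SMURF2* alone is clearly above its NT value with *miR-497*.

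Within the Ago2-IP libraries *SMURF2* was at 8.05 RPKM in NT, 13.9 with *miR-195* and 7.19 with *miR-497*. *SMURF1* was at 3.84, 7.11 and 2.93 RPKM, and *SMAD7* at 7.42, 9.58 and 4.21 RPKM. Each of the 10 genes was highest with *miR-195* in Ago2-IP as deposited. Over all genes the median ratio of this library was 1.39 to NT and 1.59 to *miR-497*. The share of all genes that were highest with *miR-195* was not determined. Relative to all genes, *SMURF1* at 0.42 (0.23 to 0.60), *TGFBR2* at 0.41 (0.36 to 0.46) and *SMURF2* at 0.31 (0.15 to 0.47) were highest with *miR-195*. *ACVR2A* and *SMAD4* were lowest, both at -0.32. With *miR-497* *SMAD7* was lowest at -0.59 (-0.86 to -0.32), and for 7 of the 10 genes the interval included the median of all genes.

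In Ago2-IP with *miR-195* 17.4% of all genes were called lower and 21.4% higher, and 0 of the 10 genes in either direction. With *miR-497* the shares were 10.3% and 12.3%, and 1 of the 10 genes, *SMAD7*, was called lower and 0 higher. Between the mimics 21.4% of all genes were lower and 24.2% higher with *miR-195*, and 1 of the 10 genes was called, *SMURF1*, which was higher. The remaining genes of the 10 ranged in Ago2-IP from 2.48 RPKM for *TGFBR1* with *miR-497* to 107 for *TGFBR2* with *miR-195*.

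The fold enrichment score, the Ago2-IP to total RNA ratio with a mimic divided by that in NT, combines both measurements. As deposited, *SMURF2* scored 3.36 (2.93 to 3.84) for *miR-195* and 1.72 (1.46 to 2.02) for *miR-497*, the highest of the 10 genes with either. *SMURF1* scored 2.68 (2.27 to 3.16) and 1.01 (0.823 to 1.24). *SMAD7* scored 1.93 (1.64 to 2.27) and 0.701 (0.571 to 0.861), above 1 with one mimic and below it with the other. Relative to the median of all genes its log2 scores were 0.48 (0.25 to 0.71) and -0.23 (-0.53 to 0.06), so the *miR-497* interval included that median. *ACVR2A* scored 1.60 (1.29 to 1.98) and 1.07 (0.845 to 1.34). *TGFBR3* scored 1.495 (1.39 to 1.61) and 1.07 (0.981 to 1.17). In log2 relative to the median of all genes, *ACVR2A* was at 0.21 and 0.37 and *TGFBR3* at 0.11 and 0.38. *TGFBR2* scored 1.12 (1.07 to 1.17) and 0.696 (0.659 to 0.735), under the median of all genes with both mimics, which was 1.38 and 0.824.

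Relative to those medians, 2 of the 10 genes (*SMURF1* and *SMURF2*) were called higher and 0 lower with *miR-195*, where 18.6% of all genes were higher and 16.9% lower. With *miR-497* 1 of the 10 genes (*SMURF2*) was called higher and 0 lower, where 12.6% of all genes were higher and 20.6% lower. Among the genes that reached 1 RPKM, 97.3% had a lower score than *SMURF2* with *miR-195* and 98.9% with *miR-497*. A score divides by total RNA, so a low total RNA value raises it by construction. For *SMURF2* with *miR-497* the Ago2-IP level was 0.892 (0.774 to 1.03) of NT as deposited, while the total RNA level was 0.520 of NT. With *miR-195* its Ago2-IP level was 1.72-fold of NT (1.54 to 1.93) and its total RNA level 0.514.

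How reads in exons shared with a neighbouring gene were assigned is not given in the sources used here, and their part in these values was not tested. Exons of *ACVR2A* overlap those of *ORC4* on the other strand over 431 bases, those of *SMURF1* overlap *TRRAP* over 735 bases and those of *SMURF2* overlap *CEP95* over 180 bases. In total RNA with *miR-195* and *miR-497* *ORC4* changed by -0.12 and -0.36, *TRRAP* by -0.02 and 0.06, and *CEP95*, listed under its older symbol *CCDC45*, by 0.13 and -0.18. *SMURF2* also has an annotated pseudogene, *SMURF2P1*, and how its reads were assigned is not given in the sources used here.

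The rest of the pathway was described by a list of 82 other genes in 6 roles. In total RNA with *miR-195* 15 of 72 genes with a value were called lower and 13 higher, with a median of -0.06, where 8.93% of all genes were called lower and 12.9% higher. With *miR-497* 7 of 71 were called lower and 8 higher, with a median of 0.03, against 7.36% and 14.2% of all genes. Among the 44 genes that reached 1 RPKM in each of the 6 libraries, 6 were lower and 6 higher with *miR-195* and 5 were lower and 1 higher with *miR-497*. Of the 8582 genes that reached this level, 6.78% were lower and 3.52% higher (*miR-195*), and 5.36% and 3.96% respectively (*miR-497*). Of the 9 other receptors with a value, 5 were lower and 1 higher with *miR-195* and 3 were lower and 0 higher with *miR-497*. Among the 6 of these that reached 1 RPKM, 3 were lower and 1 higher (*miR-195*), and 3 lower and 0 higher (*miR-497*). The others called lower were *AMHR2*, at 2.00 RPKM in total RNA of NT and 1.17 with *miR-195*, and *ACVR1C*, at 0.0534 and 0.0338 RPKM. Their fewest inferred reads, 3 and 1, were in Ago2-IP libraries, outside this comparison.

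Of these receptors, *ACVR2B*, the second activin type II receptor, was at 4.87 RPKM in NT, 2.08 with *miR-195* and 2.85 with *miR-497*, changes of -1.25 and -0.86. *BMPR1A*, a type I receptor for BMPs, was at 8.12, 4.64 and 4.68 RPKM, changes of -0.82 and -0.89. Both hold TGCTGCT. *BAMBI*, a pseudoreceptor that blocks signaling, was at 45.4, 22.2 and 30.7 RPKM without a site, changes of -1.05 and -0.66. *BMPR2*, the type II receptor for BMPs, was at 6.06, 9.59 and 7.38 RPKM, changes of 0.64 and 0.19.

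Of the 4 other SMADs 1, *SMAD9* at -0.65, was called lower with *miR-195* and 0 with *miR-497*. Of 19 intracellular regulators with a value, 2 were lower and 1 higher with *miR-195*, and 1 was lower and 1 higher with *miR-497*. Of all genes, 8.93% were lower and 12.9% higher (*miR-195*), and 7.36% and 14.2% (*miR-497*). Among the 18 regulators that reached 1 RPKM, 2 were lower and 1 higher (*miR-195*), and 1 lower and 0 higher (*miR-497*). The remaining call was *FOXH1*, at 1.15 RPKM in total RNA of NT and 2.32 with *miR-497*. Its fewest inferred reads, 4, were in an Ago2-IP library, outside this comparison. *SMAD9* and *FOXH1*, a nuclear partner of SMADs, were named after their values had been seen. *SKIL*, a co-repressor of SMADs, was at 13.8 RPKM in NT, 8.43 with *miR-195* and 8.06 with *miR-497*, changes of -0.72 and -0.86. *TGIF2*, also a repressor of SMAD-dependent transcription, was at 22.3, 12.8 and 20.8 RPKM, lower with *miR-195* by -0.82 and with a change of -0.19 with *miR-497*. Both hold TGCTGCT. *ZFYVE9*, or SARA, which brings SMAD2 and SMAD3 to the receptor, was at 9.29, 14.9 and 9.99 RPKM, changes of 0.67 and 0.01.

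Genes with the most similar course over the 6 libraries were found for 3 of the 10 genes, by the root mean square difference of log2 RPKM after each gene's mean was removed, among 8581 genes. *RNF111* followed *ACVR2A* most closely, with a difference of 0.017, where the median of all genes was 0.853. *LPGAT1*, *CHSY1* and *DHX32* were closest to *TGFBR3*, at 0.034, 0.037 and 0.043, against a median of 0.477. *CRKL* was closest to *SMAD7*, at 0.052 against 0.697, and was at 42.6, 30.4 and 37.7 RPKM in total RNA of NT, *miR-195* and *miR-497*. The ranks rest on single libraries that share depth and precipitation.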

How the data were processed

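Ago2-IP-seq and mRNA-seq of Hep G2 cells were analysed, 1 library of each kind for NT, *miR-195* and *miR-497*. The authors mapped single reads to hg19 with ELANDv2 and deposited RPKM per gene, made with CASAVA 1.7 per the labels. The annotation, the read filters and the libraries with poly-A selection are not given in the sources used here. RPKM were used as deposited, without a pseudocount. The 28 symbols on more than 1 of the 21891 lines were averaged, and 0 columns were left unmatched.

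Log2 ratios were centred on the median of all genes above 0 in the libraries compared. Reads were inferred as the smallest whole numbers matching a gene's RPKM steps within 0.02 reads. They were accepted where the implied length lay within 1.5-fold of an annotated transcript of any type, which held for 11073 of 15487 genes tried. For *TGFBR3*, *SMAD4* and *SMAD7* reads were approximated from the longest annotated transcript (3341 bases for *SMAD7*). Intervals of 95% are Poisson for levels and Wald on the log scale for ratios. The procedure was tested on simulated reads. No test was run, since each condition had 1 library.

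The 10 genes, the pathway and marker lists and the alternatives were chosen with earlier results of these data known. Named genes were the 10, up to 4 per role that reached 1 RPKM in each of the 6 libraries and the largest change past 1.5-fold in total RNA, *BMPR1A*, and the 3 genes most like *TGFBR3*, *ACVR2A* and *SMAD7*. One gene this rule selects is not reported here. Alternatives were no centring, upper quartile scaling, pseudocounts of 0.1 and 1, an RPKM of at least 1, a call at 2-fold, and other site words and 3′UTRs. RNAduplex (ViennaRNA 2.7.2), Python 3.11.15, numpy 2.4.6, pandas 2.3.3, scipy 1.17.1 and matplotlib 3.10.9 were used.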

Additional observations from a re-analysis of the deposited data

How the results depend on the processing

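No paired analysis was possible because the result comes from no test and each condition has 1 library. Without centring, the count of the 10 genes called lower in total RNA with *miR-195* was 1, the median changes in Ago2-IP were 0.39 (*miR-195*), -0.21 (*miR-497*) and 0.75 between the mimics, and the median scores were 0.55 and 0.018 (log2), with 4 genes higher in Ago2-IP with *miR-195*, 7 between the mimics and 4 by the *miR-195* score. Upper quartile scaling gave medians in total RNA of 0.038 (*miR-195*) and -0.17 (*miR-497*), and 1 gene lower with *miR-195*. A pseudocount of 1 also left 1 lower there, gave medians of 0.14 in Ago2-IP with *miR-195*, 0.34 between the mimics and 0.33 for the *miR-195* score, and called 1 and 3 genes higher in Ago2-IP with *miR-195* and between the mimics. A pseudocount of 0.1 called 2 higher between the mimics. Among genes with an RPKM of at least 1, 1 gene was lower in total RNA with *miR-195* and 0 in Ago2-IP with *miR-497*. At 2-fold, 0 were lower and 0 higher in total RNA with *miR-195*, 0 lower in Ago2-IP with *miR-497*, 0 higher between the mimics and 1 higher by the *miR-195* score. Thus the call of *SMAD7* depended on the setting, and that of *SMURF2* in total RNA with *miR-497* did not under the settings named here. TGCTGCTA was in 3 of the 10 genes and ACGACGA in 0. No called value changed sign. Of 8 medians over the 10 genes, 2 changed sign without centring, 2 with upper quartile scaling, 2 with a pseudocount of 1 and 1 with a pseudocount of 0.1, where the median of *miR-497* in Ago2-IP, 0.01, was -0.0050. Of 80 changes of single genes, 22, 4, 13 and 1 did so under these settings, among them *ACVR2A* in Ago2-IP with *miR-195*, -0.32 against 0.16 without centring. Of the 80, 49 moved beyond their counting interval without centring, 30 with a pseudocount of 1, 16 with upper quartile scaling and 4 with a pseudocount of 0.1. One library per condition limits every comparison, since variation between cultures is not in the intervals, and the genes with 150 reads in Ago2-IP with *miR-497*, *ACVR2A* and *SMAD7*, have the widest ones.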

Other observations

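The ligands and target genes of the pathway were measured in the same libraries. Of 19 listed ligands 3 reached 1 RPKM in each of the 6 libraries. *TGFB1* was at 15.4 RPKM in total RNA without transfection, 12.8 (*miR-195*) and 19.98 (*miR-497*) with it, *BMP4* at 117, 133 and 136 RPKM, and *GDF15*, a secreted stress-response factor, at 121, 99.8 and 132 RPKM. *INHBA* and *BMP7* were listed at 0 in all 6. Of 8 extracellular regulators with a value, 1 was called lower and 3 higher with *miR-195*, and 1 was lower and 1 higher with *miR-497*, where 8.93% and 12.9% of all genes (*miR-195*) and 7.36% and 14.2% (*miR-497*) were. Among the 4 that reached 1 RPKM, 1 was lower and 2 higher (*miR-195*), and 1 lower and 1 higher (*miR-497*). The remaining call was *LTBP1*, at 0.0446 RPKM in total RNA of NT and 0.102 with *miR-195*. Its fewest inferred reads, 3, were in an Ago2-IP library, outside this comparison. *LTBP1* was named after its values had been seen. *THBS1*, which can activate latent TGF-beta, was at 7.21, 17.0 and 10.0 RPKM in total RNA, changes relative to all genes of 1.22 and 0.39. *FST*, or follistatin, which sequesters activin, was at 30.7, 16.9 and 18.3 RPKM, changes of -0.88 and -0.84, and *CHRD*, an inhibitor of BMPs, at 4.48, 7.39 and 8.14 RPKM, changes of 0.71 and 0.77.

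Of 17 target genes, 3 were called lower and 4 higher in total RNA with *miR-195*, and 2 lower and 1 higher with *miR-497*, against the same shares of all genes. Among the 11 that reached 1 RPKM, 0 were lower and 2 higher (*miR-195*), and 0 lower and 0 higher (*miR-497*). *CTGF*, a matricellular protein gene induced by TGF-beta, was at 92.6 RPKM in NT, 232 with *miR-195* and 135 with *miR-497*, changes of 1.31 and 0.46. *HAMP*, which encodes the iron hormone hepcidin and is induced by BMPs through SMADs, had the lowest change of the 17, -2.98 with *miR-195* and -1.28 with *miR-497*. Its total RNA level was 16.8, 2.16 and 7.35 RPKM in NT, *miR-195* and *miR-497*, and its level in Ago2-IP was 1.39, 0.172 and 1.10 RPKM, where a library held as few as 1 inferred read. *HAMP* was named after its values had been seen. In Ago2-IP 7 of the 17 target genes were called lower and 1 higher with *miR-497*, with a median of -0.53, and 1 was lower and 7 higher with *miR-195*, with a median of 0.47. Of all genes, 10.3% were lower and 12.3% higher there with *miR-497*, and 17.4% and 21.4% with *miR-195*. Among the 11 target genes that reached 1 RPKM, 6 were lower and 1 higher (*miR-497*), and 0 lower and 3 higher (*miR-195*). Of the 8582 genes at this level, 5.26% were lower and 3.62% higher (*miR-497*), and 14.8% and 14.4% (*miR-195*). The others higher with *miR-195* were *COL1A1*, *CDKN2B*, *JUNB* and *PLAUR*. In Ago2-IP they were at 0.0401, 0.0447, 0.524 and 0.238 RPKM in NT, and at 0.149, 0.111, 1.62 and 0.624 RPKM with *miR-195*. Their fewest inferred reads, 3, 2, 6 and 1, were in the *miR-497* Ago2-IP library, outside this comparison. These genes were named after their values had been seen.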
